A study of Bos taurus with 24 samples.

Results

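The transcripts described here are those of 9 mitochondrial enzymes and enzyme subunits that carry carbon from pyruvate through the citric acid cycle: PDHA1, PDHB, CS, IDH3A, IDH2, OGDH, SUCLG1, FH and MDH2. They were chosen by gene symbol for their place in the pathway, with earlier results of these data known. All 9 were found among the 24621 genes counted, and all 9 reached 15 counts in each embryo of 1 or more of the 6 groups of culture and sex, as did 8710 genes of the whole table. Each of the 24 samples was a single Holstein early blastocyst of the best morphological grade. In vivo derived embryos (5 male, 3 female; A) were flushed from the uterus of superovulated cows about a week after insemination. Fewer cows than embryos were used and the in vitro embryos came from a small number of experiments, so some embryos of a group share a donor or experiment, whereas every test counts each embryo as a replicate. Embryos produced in vitro came from slaughterhouse ovaries and were fertilized with semen of the same bull. They were harvested as long after insemination as the in vivo derived embryos or a day earlier. The age of single embryos is not given, so age and culture cannot be fully told apart. One group matured and grew in medium with fetal bovine serum (3 male, 5 female; B). The other matured with epidermal growth factor (EGF) and grew in medium with serum albumin, insulin, transferrin and selenium in place of serum (5 male, 3 female; C). The maturation medium with serum, unlike the serum-free one, was described with added pyruvate and glutamine, so these supplements and serum cannot be told apart. Every group derived in vivo carries the superovulation treatment of its donor cows.

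Pyruvate dehydrogenase is a large mitochondrial complex that turns pyruvate into acetyl-CoA, and it is switched off when kinases phosphorylate its PDHA1 subunit and on again by phosphatases. In the citric acid cycle, acetyl-CoA and oxaloacetate are joined to citrate, which is then oxidized stepwise back to oxaloacetate, and the electrons released feed the respiratory chain. The bovine embryo relies on pyruvate and lactate before the blastocyst stage, and glucose and oxygen use rise as the trophectoderm forms.

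The shallowest embryo had 3253051 exon counts, the median embryo 4454031 and the deepest 9000447. The 13 genes of the mitochondrial genome that were matched held from 5.47% to 9.68% of counts in vivo, from 4.18% to 9.25% in serum-containing medium and from 3.57% to 8.07% in serum-free medium. DDX3Y, a gene of the Y chromosome, separated the sexes as labelled in all 24 embryos. The study had assigned sex by RT-PCR of the same gene on RNA of the same embryos, so this is not an independent check. Of 8 trophectoderm markers, 7 had at least 15 counts in every in vivo derived and every serum-free embryo and 4 in every serum-containing embryo, and CDX2 stayed under 15 counts throughout. Their summed level, most of it KRT8 in the group means, lay between 7543 and 14826 CPM (counts scaled to 1 common library size for all embryos, after TMM normalization) in vivo, between 5058 and 28259 CPM in serum-free medium and between 323 and 5209 CPM in serum-containing medium. In the lowest of these, the serum-containing embryo B2, KRT8 had 38.8 CPM. The 4 inner cell mass markers summed to 296 to 404 CPM, 187 to 453 CPM and 279 to 638 CPM in the same order. The 5 hypoblast markers summed to 344 to 595 CPM, 129 to 411 CPM and 27.0 to 235 CPM, with SOX17 at 0 in every in vivo derived and serum-containing embryo. Markers of cumulus and granulosa cells summed to at most 35.5 CPM in any embryo, those of leukocytes to at most 19.3 CPM and those of uterine epithelium to at most 18.7 CPM. The trophectoderm sum, carried by KRT8 and KRT18, and the hypoblast sum, carried by PDGFRA, were lower with serum, but markers within each list disagreed. Mean TEAD4 was 33.1 CPM in vivo and 54.7 CPM with serum, mean TFAP2C 207 and 259 CPM and mean GATA6, of the hypoblast list, 19.2 and 21.7 CPM. The part of these cell types in the differences described next was not tested. In whole embryos, fewer cells of a type and less RNA per cell cannot be told apart.

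One female embryo of the serum-containing group, B2, stood apart from the others of its group. It had the lowest trophectoderm sum of the 24 embryos, and it had the lowest level of 6 of the 9 enzymes in its culture group. Many results that rest on the serum-containing group are therefore given with and without B2, and the others include it.

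FH, fumarase, which hydrates fumarate to malate, had the smallest adjusted p of the 9 in both comparisons with serum-containing embryos. It had 178 CPM in the lowest, 269 CPM in the median and 380.4 CPM in the highest in vivo derived embryo. The corresponding values were 179, 234 and 415 CPM in serum-free medium, but 54.9, 145 and 215 CPM in serum-containing medium. Among the serum-containing embryos B4 alone, at 215 CPM, reached the range of either other group.

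SUCLG1, the alpha subunit of succinyl-CoA ligase, which makes succinate and a nucleoside triphosphate from succinyl-CoA, had the same order of groups. Its lowest, median and highest levels were 273, 323 and 391 CPM in vivo. They were 248, 302 and 400.3 CPM in serum-free medium and 142, 216 and 283 CPM in serum-containing medium. Of the serum-containing embryos only B8 exceeded the lowest in vivo level, whereas B1, B4, B6 and B8 lay within the serum-free range.

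IDH3A, the catalytic subunit of the NAD-dependent isocitrate dehydrogenase, was the most even of the 9 transcripts outside serum. It spanned 1297 to 1609.7 CPM in vivo, around a median of 1529 CPM, and 1053 to 1373 CPM in serum-free medium, around 1249 CPM. In serum-containing medium it ran from 197 CPM in B2 to 1365 CPM in B1, with a median of 987 CPM. The coefficient of variation between embryos was 7.67% in vivo, 9.52% in serum-free medium and 41.1% in serum-containing medium.

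MDH2, the mitochondrial malate dehydrogenase that closes the cycle, had lowest, median and highest levels of 984, 1064 and 1344 CPM in vivo. They were 831, 1017 and 1244 CPM in serum-free medium and 483, 821 and 1203 CPM in serum-containing medium. The serum-containing embryos spread below and into the range of the others. OGDH, the E1 subunit of the oxoglutarate dehydrogenase complex, was counted at a low level, with 21.3, 38.1 and 53.8 CPM in vivo. It had 22.7, 32.7 and 54.3 CPM in serum-free medium and 3.78, 26.4 and 44.1 CPM in serum-containing medium. The 3.78 CPM of B2 rested on 16 counts.

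Of the other members, IDH2, CS and PDHB did not have this order of medians. PDHA1 had it in its medians, but its mean was 472 CPM in vivo and 482 CPM in serum-free medium. IDH2, the NADP-dependent mitochondrial isocitrate dehydrogenase, which supplies NADPH in place of NADH, had 14.998, 35.2 and 58.2 CPM in vivo. It had 8.51, 26.7 and 42.2 CPM in serum-free medium and 32.7, 49.7 and 129.6 CPM in serum-containing medium. Its highest value belonged to B2, the embryo with the lowest IDH3A, and the groups overlapped.

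CS, citrate synthase, which opens the cycle, had 853, 1484 and 2637 CPM in vivo. It had 957, 2331 and 3453 CPM in serum-free medium and 1401, 2120 and 2486 CPM in serum-containing medium. It varied least where IDH3A varied most, with a coefficient of variation of 42.4% in vivo, 35.3% in serum-free medium and 16.7% in serum-containing medium. B2, at 2251 CPM, had the highest CS level of the 5 serum-containing females, the others having 2045 to 2197 CPM.

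PDHA1 and PDHB are the alpha and beta subunits of pyruvate dehydrogenase E1, the first enzyme of the complex. PDHA1 had 220.3, 496 and 674 CPM in vivo. It had 226, 452 and 881 CPM in serum-free medium and 112, 367 and 627 CPM in serum-containing medium. PDHB had 282, 396 and 595 CPM in vivo. It had 341, 522 and 752 CPM in serum-free medium and 99.6, 556 and 846 CPM in serum-containing medium, with B2 lowest. For both subunits the 3 groups overlapped.

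**Figure D1:**
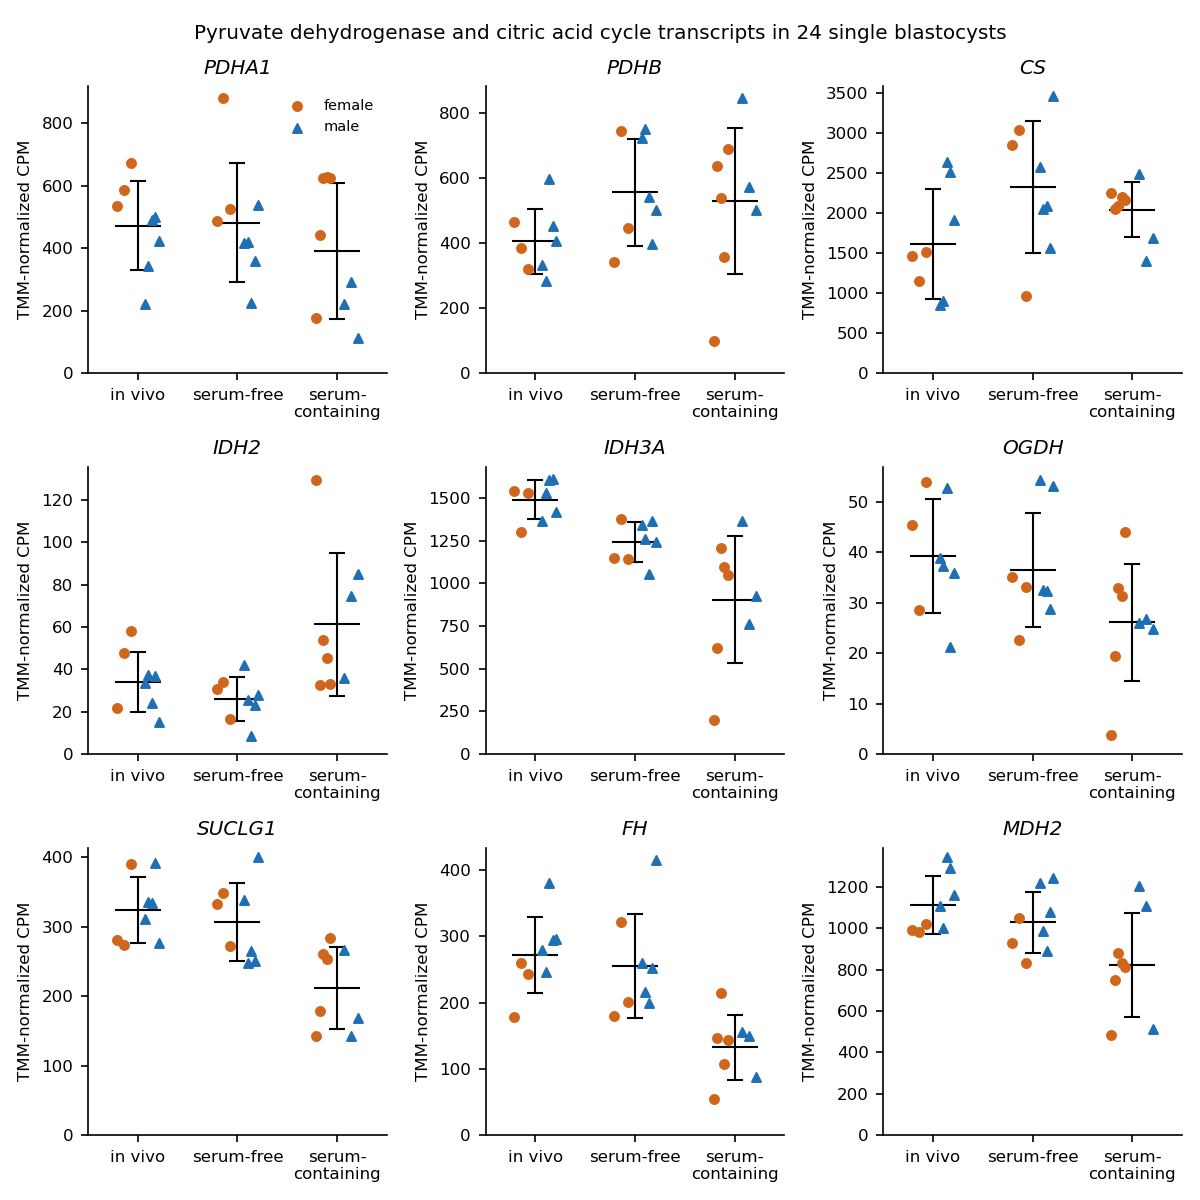
Level of each of the 9 transcripts in each of the 24 embryos, by culture, in TMM-normalized CPM on axes that start at 0; circles are female and triangles male embryos, and bars give the mean ± SD of 8 embryos. FH and SUCLG1 sit lower in serum-containing medium than in both other groups, IDH3A is tightly grouped in vivo and in serum-free medium, and the single low IDH3A, PDHB and OGDH point is embryo B2. Axes differ between genes and levels are not to be compared between them.

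The first comparison asked how embryos grown with serum differ from those that developed in the cow. Between the 8 in vivo derived and the 8 serum-containing embryos, 3 of the 9 enzymes had an adjusted p under 0.05 in the quasi-likelihood test, against 28.3% of all 7339 genes tested, so that the share of members was close to the background. All 3 were higher in vivo, as were 13.4% of the genes tested. FH was 2.07-fold higher in vivo (log2 fold change 1.05 ± 0.22 SE, adjusted p = 0.00205), from means of 272 ± 57.7 CPM and 132 ± 48.8 CPM (SD, n = 8 each). SUCLG1 was 1.54-fold higher (0.62 ± 0.17, adjusted p = 0.00958). Both calls held with any 1 of the 16 embryos left out, FH with log2 fold changes from 0.90 to 1.18 and SUCLG1 from 0.52 to 0.70. With a fold change of at least 2 also required FH alone was called, beside 13.8% of genes.

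IDH3A was 1.66-fold higher in vivo (log2 fold change 0.73 ± 0.25 SE, adjusted p = 0.0319), but the adjusted p lay above 0.05 in 9 of 16 fits with 1 embryo left out, to at most 0.0665. The embryos whose omission had this effect were A1, A3, A4, A6, A7, A8, B3, B5 and B7. The log2 fold change stayed between 0.55 and 0.81 in those 16 fits, and without B2 it was 0.55 with an adjusted p of 0.00713. MDH2 had a log2 fold change of 0.45 ± 0.17 (adjusted p = 0.0517) and OGDH of 0.60 ± 0.32 (adjusted p = 0.171), neither past the threshold. Leaving out B2 gave 0.34 for MDH2 (adjusted p = 0.0955) and 0.40 for OGDH (adjusted p = 0.19). The MDH2 value passed the threshold when B1 or B5 was left out.

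The remaining members had log2 fold changes of either sign. IDH2 was at -0.84 ± 0.32 (adjusted p = 0.0579), lower in vivo but short of the threshold in the quasi-likelihood test. It passed when A7, A9, B1, B3 or B8 was left out. The exact test of edgeR and DESeq2 called IDH2 with all embryos. Fits with DESeq2's size factors, thinned counts or sex as a covariate did not. Without B2 IDH2 was at -0.60 (adjusted p = 0.117). PDHB was at -0.37 ± 0.28 (adjusted p = 0.32) and passed the threshold without B2, at -0.57 (adjusted p = 0.0204), lower in vivo. CS was at -0.33 ± 0.22 (adjusted p = 0.266), with a 95% interval from -0.78 to 0.13. PDHA1 was at 0.28 ± 0.32 (adjusted p = 0.521), with an interval from -0.38 to 0.95. With sex as a covariate PDHA1 moved to 0.61 (adjusted p = 0.101), the serum-containing group having more female embryos than the in vivo group. Over the 9 members the median log2 fold change was 0.45, beside -0.01 over all genes tested. With B2 left out 4 members were called, beside 28.7% of all genes, and the median over the 9 was 0.34.

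The second comparison set embryos grown without serum against those derived in vivo. None of the 9 enzymes was called by edgeR's quasi-likelihood test, its exact test or DESeq2 between in vivo derived and serum-free embryos, beside 5.82% of 7314 genes, and 3 members had an unadjusted p under 0.05, as had 21.5% of genes. These were IDH3A at 0.26 ± 0.09 (adjusted p = 0.0801), PDHB at -0.46 ± 0.18 (adjusted p = 0.123) and CS at -0.53 ± 0.25 (adjusted p = 0.22). The 95% interval of the log2 fold change ran from -0.26 to 0.43 for FH, from -0.18 to 0.33 for SUCLG1 and from -0.10 to 0.32 for MDH2. It ran from -0.50 to 0.43 for PDHA1, from -0.35 to 0.56 for OGDH and from -0.22 to 1.00 for IDH2. These intervals give the range of differences that 8 embryos against 8 leave possible if each embryo is counted as a replicate. Donors and experiments shared by embryos are not allowed for in them. The median over the 9 members was 0.09, beside -0.003 over all genes tested.

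The third comparison set the 2 in vitro groups against each other. Serum-free embryos differed from serum-containing ones in 3 of the 9 members, beside 16.3% of 7181 genes, 2 being higher without serum (8.02% of genes) and 1 lower (8.29%). FH was higher without serum, 1.96-fold (log2 fold change 0.97 ± 0.24, adjusted p = 0.0136). SUCLG1 was 1.46-fold higher (0.55 ± 0.18, adjusted p = 0.042), a call that held in only 4 of 16 fits with 1 embryo left out, those without B1, B4, B6 or B8. Without B2 it was 0.47 (adjusted p = 0.0698). IDH2 was lower without serum, with 2.33-fold more in serum-containing embryos (-1.22 ± 0.34, adjusted p = 0.0224), and at -0.98 without B2 (adjusted p = 0.0361). Both the FH and the IDH2 call held in all 16 fits, and IDH2 was the 1 member called with a fold change of at least 2, beside 8.91% of genes.

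IDH3A had a log2 fold change of 0.48 ± 0.25 (adjusted p = 0.189), MDH2 of 0.34 ± 0.18 (adjusted p = 0.181) and OGDH of 0.50 ± 0.33 (adjusted p = 0.302) in the same comparison. PDHA1 was at 0.32 ± 0.33 (adjusted p = 0.523), CS at 0.20 ± 0.21 (adjusted p = 0.528) and PDHB at 0.09 ± 0.29 (adjusted p = 0.864). This fit had no term for sex, and the serum-containing group had more female embryos than the serum-free group. PDHA1 was higher in females over all embryos, so its value here mixes culture and sex. With sex as a covariate PDHA1 was not called either. Leaving out B2 gave 0.31 for IDH3A (adjusted p = 0.173), 0.24 for MDH2 (adjusted p = 0.315) and 0.31 for OGDH (adjusted p = 0.382). The 3 comparisons share embryos, so their values are set side by side here and are not independent of each other. With B2 left out, FH and IDH2 were the 2 members called, beside 15% of genes.

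**Figure D2:**
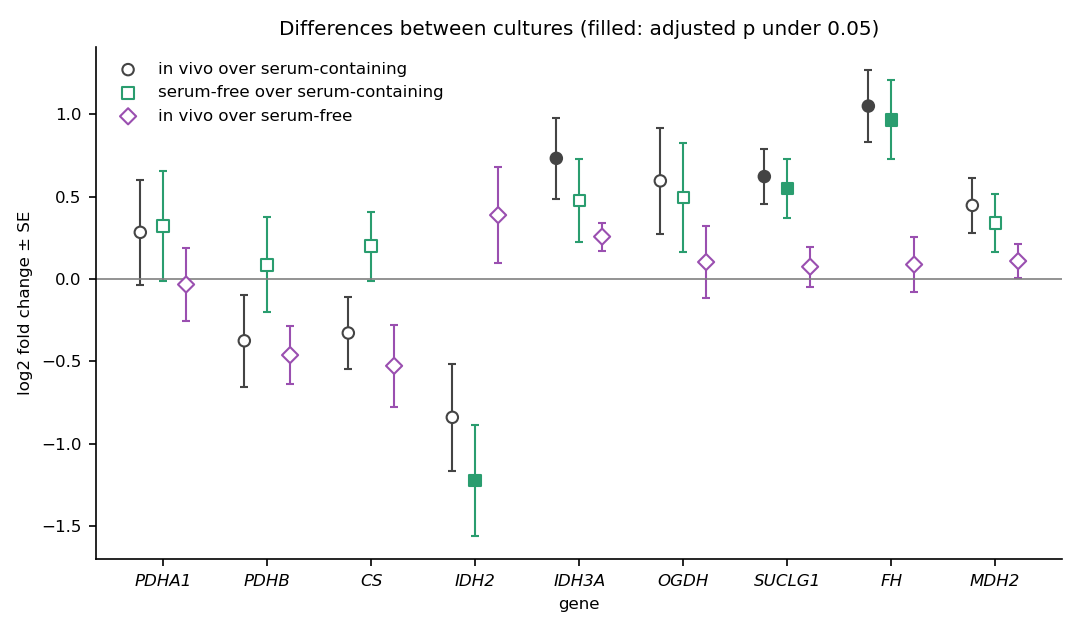
Log2 fold change ± SE of each of the 9 transcripts in the 3 comparisons of cultures, 8 embryos against 8 in each; filled symbols have an adjusted p under 0.05. FH reaches 1.05 and 0.97 against serum-containing embryos and lies at 0.09 between in vivo and serum-free embryos. IDH2 points the other way in both comparisons with serum-containing embryos, but not between in vivo and serum-free embryos. PDHB and CS are negative in both comparisons with in vivo embryos.

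Because IDH3A and IDH2 use the same substrate with different cofactors, the counts of IDH3A over those of IDH2 were also set side by side within each embryo, a ratio chosen after the values were seen and given without a test. Its absolute size depends on transcript length and says nothing of which enzyme is more abundant. It was 26.3 in the lowest, 42.2 in the median and 94.7 in the highest in vivo derived embryo, and 31.8, 46.9 and 124 in serum-free embryos. In serum-containing embryos it was 1.52, 20.6 and 38.1, with B2 lowest and B5 next at 10.2. The serum-containing embryos thus reached down to ratios found in neither other group, and their upper part overlapped both.

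The other genes of the pathway were taken from lists by role. Of 9 further cycle enzymes tested, 5 were higher in vivo than in serum-containing embryos and none was lower, beside 28.3% of all genes called and 13.4% higher, and all 9 had a positive log2 fold change with a median of 0.49. SUCLG2, the GTP-forming partner of SUCLG1, changed most, at 1.80 ± 0.29 (adjusted p = 0.000328), from 226 to 336 CPM in vivo against 19.3 to 147 CPM without overlap. SDHA, the flavoprotein subunit of succinate dehydrogenase, was at 0.83 ± 0.18 (adjusted p = 0.00279) and its membrane anchor SDHD at 0.67 ± 0.20 (adjusted p = 0.018), and neither overlapped between the groups. SUCLA2, the ATP-forming partner of SUCLG1, was at 0.49 ± 0.16 (adjusted p = 0.0255), a call lost without A1, A4, A7, A8 or B7. Groups did not overlap in 7% of all genes tested. Between serum-free and serum-containing embryos 3 of the 9 were higher without serum, beside 8.02% of all genes, SUCLG2 at 1.90 ± 0.33 (adjusted p = 0.00282), SDHD at 0.71 ± 0.24 (adjusted p = 0.0464) and SDHC at 0.53 ± 0.16 (adjusted p = 0.032). Without B2 the counts were 4 of 9 against in vivo embryos, beside 28.7% of all genes called, and 1 of 9 against serum-free embryos, beside 15%. SUCLG2 was called in both. Between the in vitro groups the SDHD call held in 5 of 16 fits with 1 embryo left out, the SDHC call in 9 and the SUCLG2 call in all 16.

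Of the pyruvate dehydrogenase complex and its regulators, 6 genes beside the 2 members were tested, 5 of them between the in vitro groups. PDHX, which anchors the E3 component in the complex, was the 1 gene called, beside 28.3% of all genes, at 1.10 ± 0.18 (adjusted p = 0.000428) between in vivo and serum-containing embryos. It had 129 to 239 CPM in vivo and 52.7 to 126 CPM in serum-containing medium, without overlap, and 105 to 248 CPM in serum-free medium, where it was 0.88 ± 0.22 higher on the log2 scale than with serum (adjusted p = 0.0136). DLD, the E3 enzyme shared with oxoglutarate dehydrogenase, had 0.03 ± 0.16 (adjusted p = 0.91). The kinases PDK1 and PDK4 and the phosphatase regulator PDPR were under the limit for testing, with at most 8.85, 12.5 and 7.38 CPM in any embryo, and the testis-type subunit PDHA2 had at most 2 counts. None of the 6 was called by the quasi-likelihood test between in vivo and serum-free embryos. Of the 2 genes of lipoate attachment tested, LIAS and LIPT1, none was called in the 3 comparisons of cultures.

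Among 14 tested genes of entry, exit and cytosolic counterparts, 5 were higher and 2 lower in vivo than in serum-containing embryos, beside 13.4% and 14.8% of all genes. MPC1 and MPC2, which form the mitochondrial pyruvate carrier, were at 1.33 ± 0.34 (adjusted p = 0.00785) and 0.71 ± 0.22 (adjusted p = 0.0207). ACLY, which splits exported citrate to acetyl-CoA in the cytosol, was at 0.88 ± 0.27 (adjusted p = 0.0185), and MDH1, the cytosolic malate dehydrogenase, at 0.71 ± 0.19 (adjusted p = 0.011). The 2 aspartate aminotransferases were lower in vivo, GOT1 at -0.72 ± 0.21 (adjusted p = 0.0158) and GOT2 at -0.53 ± 0.19 (adjusted p = 0.0413). Without B2 the counts were again 5 and 2, beside 28.7% of all genes called in either direction. The MPC2 call was lost without A1 or A6, and the GOT2 call without A2, A7, A9, B3 or B8. Between the in vitro groups 4 of the 14 were higher without serum, beside 8.02% of all genes, the cytosolic aconitase ACO1 at 1.15 ± 0.28 (adjusted p = 0.0123), ACLY at 1.11 ± 0.29 (adjusted p = 0.0194, lost without C7), MPC2 at 0.93 ± 0.25 (adjusted p = 0.0191) and the lactate dehydrogenase subunit LDHB at 0.89 ± 0.19 (adjusted p = 0.00842).

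PCK2, mitochondrial phosphoenolpyruvate carboxykinase, which draws oxaloacetate out of the cycle, stood out between in vivo derived and serum-free embryos. It had 6.31, 13.2 and 24.2 CPM in the lowest, median and highest in vivo embryo and 43.1, 80.0 and 135 CPM in serum-free embryos, without overlap, where 0.943% of all genes tested did not overlap. The log2 fold change was -2.49 ± 0.29 (adjusted p = 0.000191). Serum-containing embryos ran from 0 to 118 CPM, with a median of 6.52 CPM. SDHB, the iron-sulfur subunit of succinate dehydrogenase, was the other list gene called there, at 0.39 ± 0.10 (adjusted p = 0.0249), a call lost without A3 or A7. PCK2 was thus 1 of 14 entry and exit genes tested and SDHB 1 of 9 further cycle enzymes, beside 5.82% of all genes called.

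**Figure D3:**
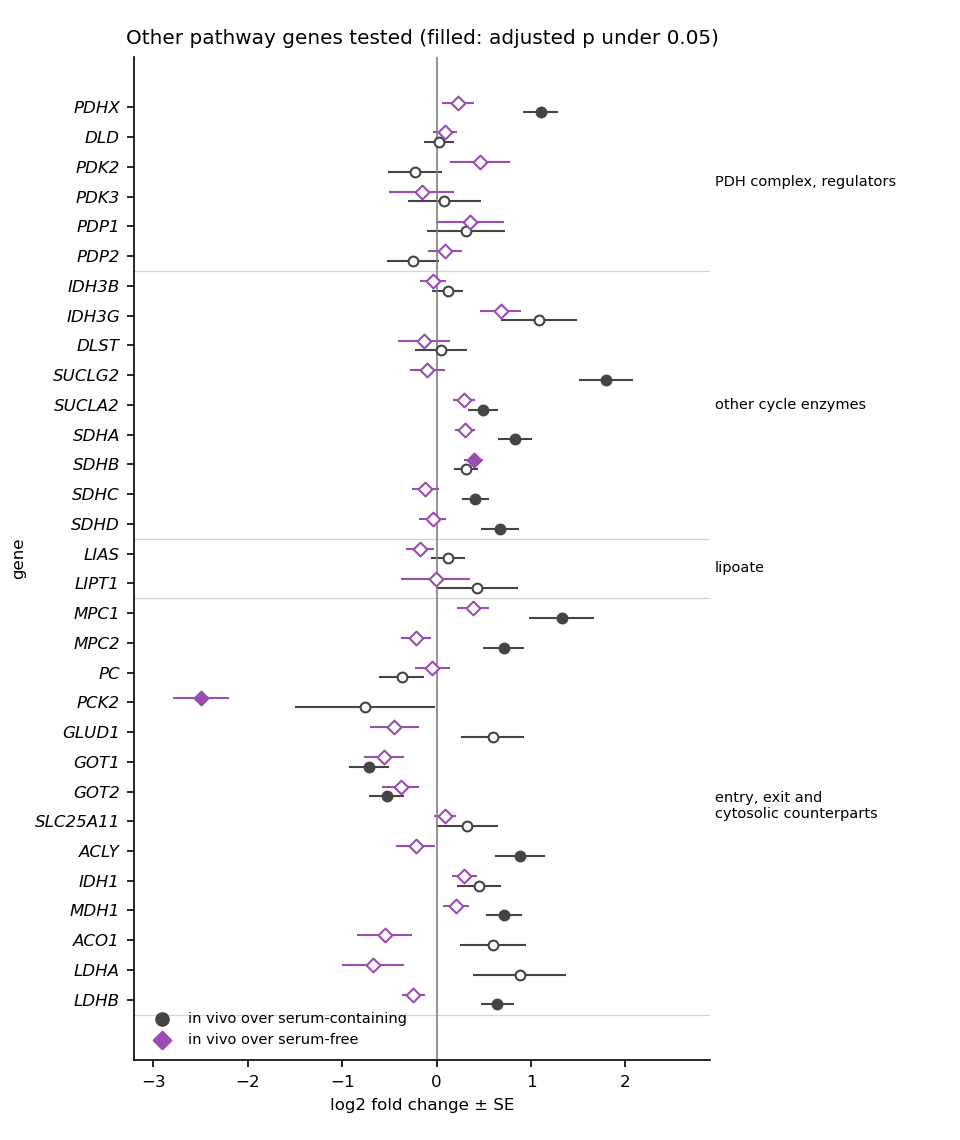
Log2 fold change ± SE of the other tested pathway genes for in vivo over serum-containing embryos (circles) and in vivo over serum-free embryos (diamonds), 8 embryos against 8 in each; filled symbols have an adjusted p under 0.05. Most cycle enzymes and both pyruvate carrier subunits lie to the right against serum, the aminotransferases lie to the left, and PCK2 at -2.49 is the farthest point against serum-free embryos.

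The sexes were then compared apart. In males, 3 of the 9 members were called between the 5 in vivo derived and the 3 serum-containing embryos, beside 19% of 7762 genes, 2 being higher in vivo (9.77% of genes) and 1 lower (9.19%). FH had 279, 247, 380.4, 295 and 296 CPM in the in vivo males A1, A2, A3, A4 and A8. It had 156, 149.95 and 87.0 CPM in the serum-containing males B1, B5 and B7. The groups were separate, and FH was 2.31-fold higher in vivo (log2 fold change 1.21 ± 0.23, adjusted p = 0.00528). SUCLG1 did not overlap either, with 276 to 391 CPM in vivo and 266, 143 and 169 CPM in serum-containing males (0.79 ± 0.22, adjusted p = 0.0304). IDH3A was likewise separate, but barely, A1 having 1366 CPM and B1 1365 CPM (0.58 ± 0.19, adjusted p = 0.0571). Groups did not overlap in 26.2% of the genes tested. IDH2 was lower in vivo, with 14.998 to 37.3 CPM against 35.8, 74.8 and 85.2 CPM (-1.14 ± 0.37, adjusted p = 0.0492). PDHA1 was at 0.93 ± 0.32 (adjusted p = 0.0618) and PDHB at -0.62 ± 0.25 (adjusted p = 0.101), neither past the threshold. The exact test and DESeq2 called PDHA1, whereas fits with DESeq2's size factors or thinned counts did not. With 3 males in 1 group the SUCLG1 call held in 2 of 8 fits with 1 embryo left out (those without A8 or B1), the IDH2 call in 1 (without B1) and the FH call in all 8.

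Among the other pathway genes of males, 3 cycle enzymes of 9 tested were higher in vivo, beside 9.77% of all genes, SUCLG2 (2.39 ± 0.40, adjusted p = 0.00276), IDH3G (1.39 ± 0.38, adjusted p = 0.0269) and SDHA (0.90 ± 0.20, adjusted p = 0.0111). PDHX was at 1.49 ± 0.19 (adjusted p = 0.000787). Of the 14 entry and exit genes 5 were higher, beside the same 9.77%, PCK2 most (2.44 ± 0.78, adjusted p = 0.0478), then LDHA (1.81), ACO1 (1.48) and ACLY (1.28), and GOT1 was lower (-0.69 ± 0.20, adjusted p = 0.0354). With 1 embryo left out the PCK2 call held only without B5 or B7, the IDH3G call only without A2 or B1 and the GOT1 call only without A1 or B1.

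In females, the quasi-likelihood test called none of the 9 members between the 3 in vivo derived and the 5 serum-containing embryos, beside 0.418% of 8138 genes, and 1 had an unadjusted p under 0.05, as had 21.1% of genes. That member was CS, which had 1456, 1144 and 1512 CPM in vivo and 2045 to 2251 CPM in serum-containing females without overlap (-0.67 ± 0.17, adjusted p = 0.101). IDH3A and MDH2 did not overlap either, being higher in vivo, where 22.7% of genes did not overlap. The exact test called 0 members and DESeq2 called 1, CS. CS was also the 1 member called without B2, beside 7.13% of genes. FH was at 0.75 ± 0.37 (adjusted p = 0.271), SUCLG1 at 0.48 ± 0.26 (adjusted p = 0.322) and IDH3A at 0.79 ± 0.45 (adjusted p = 0.34), all positive as in males. Leaving out B2 gave 0.57 for FH (adjusted p = 0.167), 0.37 for SUCLG1 (adjusted p = 0.273) and 0.56 for IDH3A (adjusted p = 0.126). No gene of the other pathway lists was called in females by the quasi-likelihood test, and without B2 SUCLG2, IDH3G and MPC1 were called higher and GOT1 lower in vivo. The difference between the sexes itself was tested as an interaction. No gene of 8446 was called in it by the quasi-likelihood test and no member by DESeq2, and no member had an unadjusted p under 0.05, as had 5.16% of genes. The interaction was 0.42 for FH, with a 95% interval from -0.55 to 1.38, and 0.65 for PDHA1, from -0.47 to 1.76. Against serum-free embryos no member was called by the quasi-likelihood test in males or females, beside 1.76% and 0.304% of genes, nor by the exact test or DESeq2. An unadjusted p under 0.05 was found for 2 members in males, beside 18% of genes, for 0 in females, beside 14%, and for 0 in the interaction, beside 6.59%. PCK2 was lower in vivo in both sexes, at -2.51 ± 0.28 in males (adjusted p = 0.00186) and -2.51 ± 0.37 in females (adjusted p = 0.0323). The female call was lost when any 1 of the 6 embryos was left out.

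PDHA1 is encoded on the X chromosome, as are IDH3G, a regulatory subunit of NAD-dependent isocitrate dehydrogenase, and PDK3, a pyruvate dehydrogenase kinase. In the early female embryo both X chromosomes can be active. In vivo the 3 females had 537, 588 and 674 CPM and the 5 males 220.3, 342, 492, 499.8 and 423 CPM for PDHA1, without overlap, where 9.93% of genes did not overlap. In serum-free medium the females C3, C8 and C10 had 881, 527 and 486 CPM and the males 226 to 538 CPM. In serum-containing medium the females B3, B4, B6 and B8 had 443 to 627 CPM and B2 176 CPM, against 222, 291 and 112 CPM in the males B1, B5 and B7. In both in vitro groups the sexes overlapped, by 1 female embryo with serum (B2) and by the males reaching 538 CPM without serum.

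Within each culture PDHA1 did not pass the threshold, with log2 fold changes of male over female of -0.60 ± 0.21 in vivo (adjusted p = 0.216), -1.28 ± 0.45 with serum (adjusted p = 0.632) and -0.69 ± 0.27 without serum (adjusted p = 0.573). No other member was called within a culture by the quasi-likelihood test or DESeq2, beside 1.26%, 0.173% and 0.152% of genes, and 2, 1 and 1 members had an unadjusted p under 0.05, beside 13.5%, 6.24% and 8.01% of genes. Over all 24 embryos with culture as a term PDHA1 was lower in males by -0.86 ± 0.21 on the log2 scale, 1.81-fold higher in females (adjusted p = 0.0169). It was the 1 member called, beside 2.63% of 6659 genes, or 2.07% lower in males. The call was lost without C3, at -0.74 (adjusted p = 0.0565), and held in the other 23 fits with 1 embryo left out. Without B2 it was -0.91 (adjusted p = 0.00228). The 8 other members, none called, had log2 fold changes between -0.17 (IDH2) and 0.25 (MDH2, adjusted p = 0.401).

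PDK3 was lower in males by -1.41 ± 0.19 over all embryos (adjusted p = 2.13e-05) and by -1.35 ± 0.26 in vivo (adjusted p = 0.0178). In vivo males had 21.9 to 42.2 CPM and females 106, 58.1 and 90.9 CPM, and the in vivo call was lost without A2, A6 or A9. In both other cultures the sexes were separate as well, at 20.8 to 22.8 against 35.7 to 98.9 CPM with serum and 24.2 to 59.0 against 70.8 to 122 CPM without. The sexes did not overlap there in 6.12% and 6.72% of genes, and the quasi-likelihood test called PDK3 in neither culture. IDH3G was lower in males in vivo (-0.95 ± 0.15, adjusted p = 0.00377), with 117 to 165 CPM against 255 to 287 CPM in females. Over all embryos it was at -0.87 ± 0.26 (adjusted p = 0.0806), and at -0.96 without B2 (adjusted p = 0.00169), where B2 had 13.2 CPM.

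**Figure D4:**
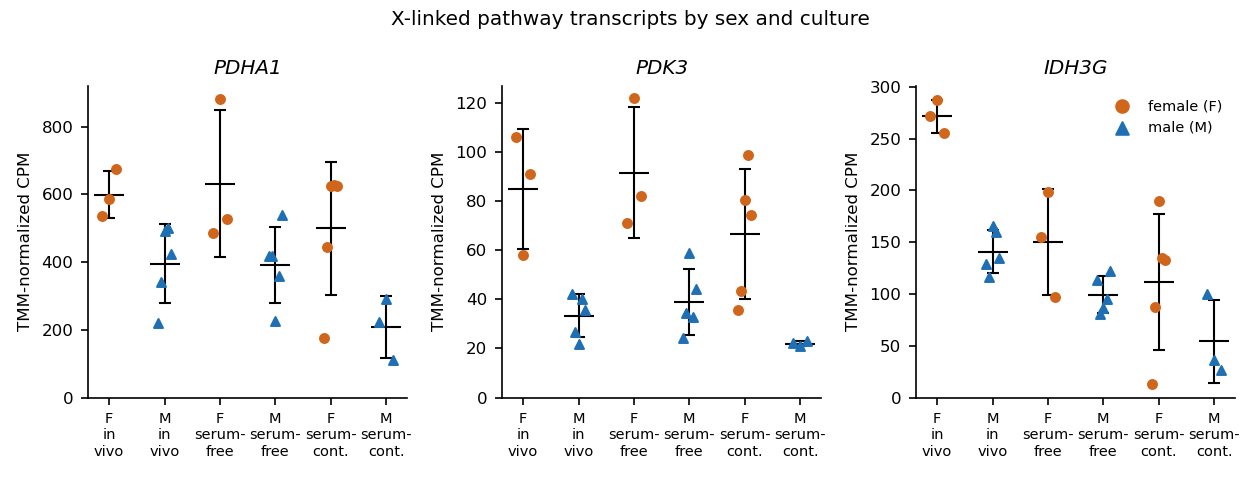
Levels of PDHA1, PDK3 and IDH3G in female (F, circles) and male (M, triangles) embryos of each culture, in TMM-normalized CPM on axes that start at 0, with the mean ± SD of 3 or 5 embryos. Females lie above males for PDK3 in every culture and for PDHA1 and IDH3G in vivo, and the low female point with serum is B2.

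PDHA1 and PDHB enter the E1 enzyme as equal partners, and PDHB lies on an autosome. The counts of PDHA1 over those of PDHB, a ratio chosen after the values were seen and not tested, were 1.16, 1.52 and 2.11 in the in vivo females and 0.665 to 1.21 in the in vivo males. They were 1.18 to 1.43 in serum-free females and 0.417 to 1.07 in serum-free males. In serum-containing medium they were 0.696 to 1.76 in females, B2 included at 1.76, and 0.263, 0.508 and 0.222 in the males. The sexes were separate in both in vitro groups and overlapped in vivo, and all 3 serum-containing males and the serum-free males C1, C2 and C4 lay below every in vivo embryo.

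The 9 transcripts did not all vary together over the 24 embryos. The Pearson correlation of each member's log2 level with the mean z-score of the other 8 was 0.77 for IDH3A, 0.77 for FH, 0.76 for MDH2, 0.75 for SUCLG1 and 0.69 for OGDH. It was 0.55 for PDHA1, 0.47 for PDHB, 0.12 for CS and -0.53 for IDH2. These values include the differences between cultures and embryo B2, whose mean z-score of -1.99 was the lowest, and the points share library depth. Outside the lists, the 5 genes most like the mean of the members among 7489 genes were SAMM50, RHOC, HEXA, PCYT2 and PRIM1, with Pearson correlations from 0.86 to 0.87. After the mean of each culture was subtracted they were CPNE3, RPN2, RHOC, SAMM50 and NDUFV1, from 0.83 to 0.84.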

How the data were processed

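Single early blastocysts (8 in vivo derived, 8 produced with serum, 8 produced without) were measured by RNA sequencing after amplification of full-length cDNA, with no strand information and no molecular identifiers. The authors trimmed the reads, mapped them with CLC Genomics Workbench to the bovine genome (UMD3.1 per the labels) and deposited counts of uniquely mapped exon reads per gene, not normalized. The 9 members and all gene lists were chosen with earlier results of these data known. Groups came from the labels, and no column belonged to another series. Genes with at least 15 counts in every embryo of at least 1 group compared were tested with edgeR 4.0.16 in R 4.3.3 (TMM, quasi-likelihood F test) in fits of the groups compared, with Benjamini-Hochberg adjustment over all genes tested. Called means an adjusted p under 0.05. Log2 fold changes are first group over second, with approximate standard errors from the F statistic and 95% intervals from the same. Printed CPM were TMM-normalized over the 24 embryos and are not divided by transcript length.

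Named pathway genes were those called, at most 4 per list and direction by size of change, and the X-linked genes between sexes. DESeq2 1.42.0, edgeR's exact test, other filters and scalings, thinned counts, sex as a covariate, a replicate block, one fit of all embryos and each embryo left out were alternatives. The tests were tested on simulated data. P-values measure the spread between embryos, and the labels name neither donor cow nor in vitro experiment nor lane, so these and culture cannot be told apart. Low values rest on few reads (OGDH in B2 on 16 counts), and counts of amplified cDNA do not cover the sampling of molecules. No pair of embryos of a group agreed within sampling noise (chi-square per degree of freedom of at least 15.9). DLAT and SLC25A10 were not analysed here, 1 gene of the pathway lists is not reported here, and no sequence, coordinate or transcript length was used.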

Additional observations from a re-analysis of the deposited data

Results flagged for a closer look

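Among the 8 serum-containing embryos, B2 lay far below the other 7 for 3 enzymes by Dixon's test, which was run on 27 groups of 8 and flags about 1 group in 20 by chance. PDHB had 99.6 CPM in B2, where the nearest embryo had 357 CPM. IDH3A had 197 CPM, with the nearest at 621 CPM. OGDH had 3.78 CPM, with the nearest at 19.4 CPM. In the same embryo the trophectoderm markers summed to 323 CPM and the hypoblast markers to 27.0 CPM, the lowest of all embryos, and its total of 4558324 counts was close to the median. The part of either in the low values was not tested.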

How the results depend on the processing

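Of the comparisons in the report, the number of the 9 members called moved by over 1.5 times in these settings. Requiring a fold change of at least 2 left 1 between in vivo and serum-containing embryos (FH) and 1 between serum-free and serum-containing embryos (IDH2), and 0 between the sexes over all embryos, where PDHA1 was called without it. DESeq2 called 5 between in vivo and serum-containing embryos (IDH2 and MDH2 besides the 3), 5 in males (PDHA1 and IDH3A besides) and 1 in females (CS). With at least 15 counts in every embryo 5 were called in males, and with at least 1 count in any embryo 1 was called between in vivo and serum-free females (CS). The shares of all genes called with DESeq2 and these filters are not given here, so these counts cannot be set against the background. With 1 embryo left out the counts were 2 to 5 between in vivo and serum-containing embryos, 2 to 3 between serum-free and serum-containing embryos, 1 to 4 in males, 0 to 1 in females and 0 to 1 between the sexes over all embryos, and 0 elsewhere. The labels do not say whether the title numbers pair the embryos. After the mean of each culture was subtracted, correlations of same-numbered embryos lay between -0.137 and 0.0924. They showed no pairing but cannot exclude a shared experiment. With the number as a replicate block, 0 members instead of 3 were called between serum-free and serum-containing embryos (29 instead of 1171 genes). With the block 3 were called between in vivo and serum-containing embryos (FH, IDH2 and MDH2, with 1079 instead of 2074 genes) and 0 against serum-free embryos (173 instead of 426). PDHB between serum-free and serum-containing embryos was reversed in 1 fit over all 24 embryos (-0.0025) and ran from -0.0897 to 0.19 with 1 embryo left out. CS in that comparison was reversed with the replicate block (-0.0086). With 1 embryo left out PDHA1 ran from -0.14 to 0.13 and FH from -0.00104 to 0.22 between in vivo and serum-free embryos, and IDH2 from -0.81 to 0.0458 between in vivo and serum-containing females. These reversed values were not called in any of these fits, and the causes were not tested. Of 1793 values of single genes under all alternatives, 987 with 1 embryo left out and 610 in other settings kept their direction and side of the threshold.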
